A study of Homo sapiens with 12 samples.

Results

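A set of 155 genes was read in SCC-15 cells with a control hairpin and was at or near 0 in cells labelled as the same line with any of 3 hairpins against FMOD. SCC-15 is an established line of human oral squamous cell carcinoma. FMOD encodes fibromodulin, a small proteoglycan of the extracellular matrix. Each gene had at least 100 rounded counts in every library of the negative-control hairpin (NC; labelled shRNA-NC) and at most 3 counts in each of the 9 libraries with shRNA1, shRNA2 or shRNA3. CLDN1, MT1E and WFDC2, which meet the same limits, were left out. The table lists 61044 identifiers, of which 33435 had any count and 11522 had at least 100 counts in every NC library. With the groups exchanged, the same limits selected 30 genes.

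The samples were 12 RNA sequencing libraries in 4 groups of 3, all harvested after 48 hours, and each group carried 1 hairpin in cells that the labels give as the same line. The labels do not say whether libraries of a group came from separate cultures, so p-values measure only the spread between these libraries, which may be technical. All NC libraries carry the same hairpin, and any other difference between the NC cultures and the rest cannot be told apart from the hairpins. Totals ranged from 17286934 to 19567192 counts per library. FMOD itself had 2, 2 and 3 counts in NC libraries 1, 2 and 3 and 0 in all 9 shRNA libraries, so its knockdown could not be assessed at this depth. All 11 markers of squamous and simple epithelium were above 1 CPM (counts per megaread of library size) in at least 1 library, with a summed level of 3993 to 4295 CPM in NC and 5407 to 6931 CPM in the shRNA libraries. Within that list the genes moved apart: group means of KRT5 were 1007 CPM in NC and 21.4 to 80.1 CPM with the hairpins, those of CDH1 322 and 38.2 to 66.0 CPM, and those of KRT8 870 and 2343 to 2897 CPM. Among the leukocyte markers, PTPRC, CD3E and LYZ were at or below 9 counts in every library, ITGAM reached 1.76 CPM, and CD68 lay between 43.7 and 235 CPM. The leukocyte list summed to 54.8 to 73.9 CPM in NC and 44.9 to 236 CPM in the shRNA libraries, nearly all of it CD68. The fibroblast list summed to 56.6 to 59.8 CPM in NC and 15.6 to 86.6 CPM elsewhere. For the endothelial list these sums were 17.8 to 23.3 and 3.88 to 13.3 CPM, and for the melanocyte or neural list 75.5 to 89.8 and 74.1 to 119 CPM. Within these lists, group means of CDH5 were 17.3 CPM in NC and 1.35 to 2.53 CPM with the hairpins. Those of PDGFRB were 10.7 and 0.727 to 1.10 CPM, and those of PECAM1 were 0.133 and 2.60 to 8.73 CPM. The differences from NC were wide: 32.2% of 17532 tested genes were lower and 27.9% were higher for the mean of the 3 hairpins (edgeR quasi-likelihood test, adjusted p under 0.05). Within a group, libraries correlated across genes with Pearson's r of 0.983 or more (log2(CPM + 1) over the tested genes, which are not independent), except in shRNA3. There, library 3 had r = 0.919 and 0.916 with libraries 1 and 2 of its own group and 0.988 with each shRNA2 library. Libraries of different hairpins against FMOD correlated at 0.904 to 0.988, and NC libraries correlated with shRNA libraries at 0.829 to 0.855. Whether the NC and the shRNA cells are the same line was not tested, and the cells and the hairpin cannot be told apart in a value seen only in NC. The members are at or near 0 in all 3 shRNA3 libraries, and without shRNA3 libraries 1 and 2 the limits select 165 genes. The joint count limits, CLDN1, MT1E and WFDC2 included, were met by 158 of the tested genes, or 0.901%. Since the limits use this contrast, no test against NC is given for a member, and the 155 passed the filter on low counts through their NC libraries.

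Several of the members belong to well-studied systems. MHC class II molecules present peptides from endosomes to helper T cells, and epithelial tumour cells can express them. MAGE-A genes are cancer-testis genes of the X chromosome, normally read in germ cells and often active in tumours. The ARMCX and BEX genes are small X-linked families that lie beside each other on the long arm.

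As a whole, the members summed to 3431 to 3508 CPM (here of the raw total) in the NC libraries and to 2.02 to 3.88 CPM in the shRNA libraries. Of the 1395 values of the members in shRNA libraries, 1104 (79.1%) were 0, 166 were 1, 93 were 2 and 32 were 3. A count of 0 allows up to 3 counts of a library's total, and this limit covers counting error only. In all, 52 members were at 0 in all 9 shRNA libraries. The remaining traces were few for every gene: the long non-coding RNA AC093627.1 had the most, with 16 counts summed over the 9 libraries, followed by CNTN1 and CCNJL with 13 each and NMB with 12. The 3 shRNA1 libraries held 58, 76 and 64 member counts, and the other 6 shRNA libraries held 35 to 47. In CPM of the raw total the ranges were 2.98 to 3.88 and 2.02 to 2.72, but in CPM of the TMM-scaled total they overlapped (2.88 to 3.68 and 1.97 to 3.42). The rule holds every one of these values to at most 3 counts.

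Levels in NC spanned 5.24 to 235 CPM (scaled by TMM), with a median of 11.3. Only 9 members reached 50 CPM, 81 lay between 10 and 50, and 65 lay below 10. Against the level that 3 counts per library would give, the members were at least 26.7-fold lower in the shRNA libraries at the lower end and at least 1198-fold lower at the upper end (median 57.6, taking for each gene the smallest bound over the 3 hairpins). These bounds hold for the observed counts. Where shRNA counts were read, as in the 26 members that reached 3, counting error may allow a higher level and a smaller fold. The NC libraries were alike: the coefficient of variation across the 3 libraries had a median of 8.84%, beside 7.57% for 10766 other genes in the same range of levels. It exceeded 20% in 9 members. The activin-type receptor ACVR1C varied most, with 282, 241 and 413 counts (30.0%), followed by LY75 (28.2%), FAM184A (24.8%) and CCND2 (24.6%). PTPN20, ZNF32, CXCL1, CDH11 and PWWP3B had values between 20.8% and 24.1%.

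**Figure D1:**
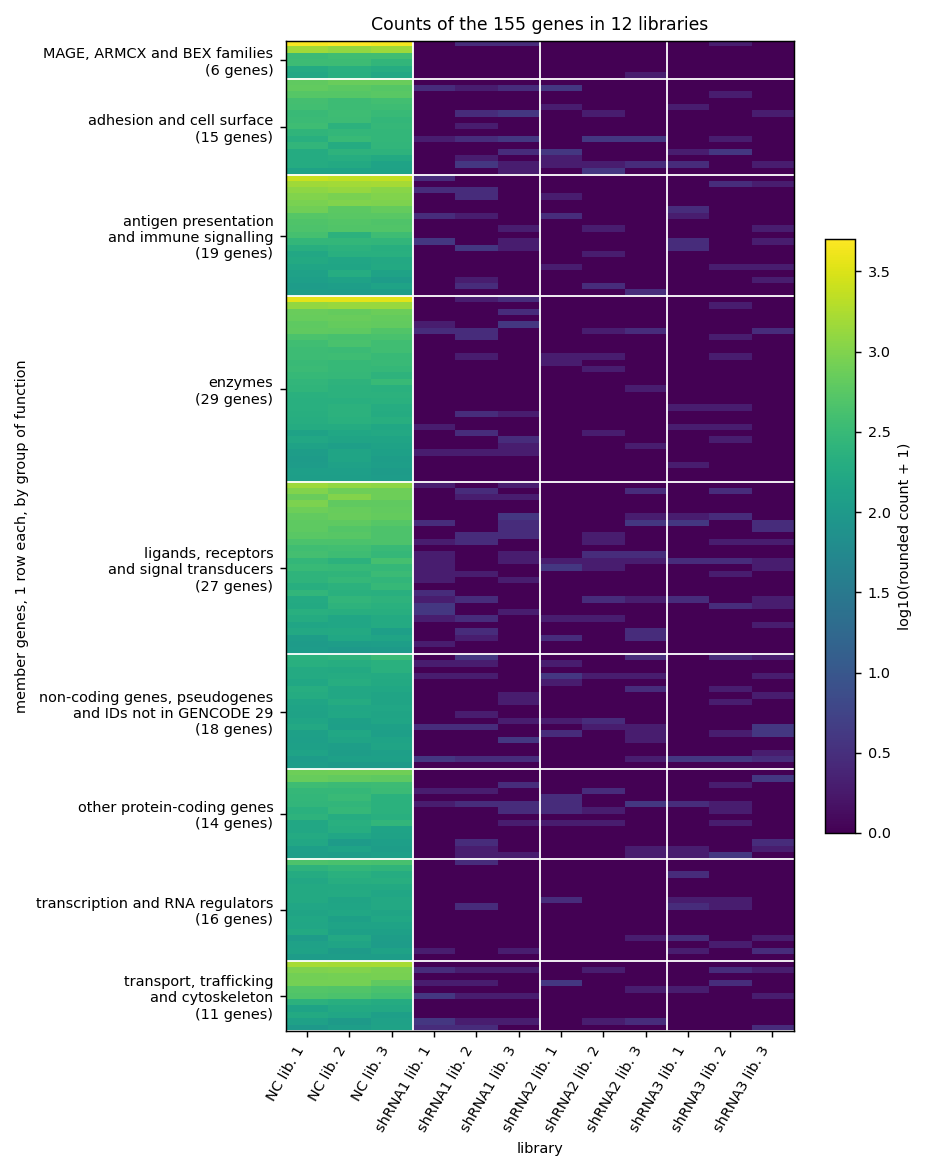
Rounded counts of the 155 genes (vertical axis, 1 row each, grouped by function and ordered by NC level) in the 12 libraries (horizontal axis), coloured by log10(count + 1). All 155 genes are read in the 3 NC columns, and 1104 of the 1395 values in the 9 shRNA columns are 0.

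By what they encode, the members fell into 9 groups that were written by hand. There were 29 enzymes, 27 ligands, receptors and signal transducers, 19 genes of antigen presentation and immune signalling, and 16 regulators of transcription or RNA. Another 15 act in adhesion or at the cell surface, 11 in transport, trafficking or the cytoskeleton, and 6 belong to the MAGE, ARMCX and BEX families. The last groups were 14 other protein-coding genes and 18 non-coding genes, pseudogenes or identifiers outside GENCODE release 29. In that release 137 members are protein coding, 7 are lincRNAs, 4 are antisense RNAs, 2 are processed transcripts and 3 are pseudogenes. The share of protein-coding genes was 89.5% of the 153 annotated members, beside 95.2% of the other genes read in NC. Merged exon length was shorter in the members (median 3858 bases) than in the other genes read in NC (5193), while median GC content was 48.4% in both.

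HLA-DRA (ENSG00000204287, chr6:32439842-32445046, GRCh38), the nearly monomorphic alpha chain of HLA-DR, had 2470, 2217 and 2299 counts in NC libraries 1, 2 and 3. In the shRNA libraries it had 2 counts in shRNA1 library 1 and 0 in the other 8. At 117 ± 7.77 CPM (SD, n = 3) it reached 91.2 CPM per kilobase of exon, the highest of all members. HLA-DRB5, a DR beta chain, had 999, 916 and 1001 counts in NC and at most 2 elsewhere. HLA-DRB1, the main DR beta chain, had 782, 596 and 680, and 2 counts in shRNA3 library 1 as its only shRNA reads. These beta chains are near-identical copies, so the division of reads between them is uncertain. HLA-DMB, which helps load peptides, had 531, 562 and 568 counts in NC and at most 2 in any shRNA library. HLA-DPB1, the DP beta chain, had 474, 515 and 487 counts and 0 in all 9 shRNA libraries. The rule fixes the gap between NC and the shRNA libraries for these 5 genes.

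Promoters of the class II genes are known for a Y box, an inverted CCAAT sequence. The 300 bases around the start of HLA-DPB1 and HLA-DMB (RefSeq, GRCh38.p14, 250 before and 50 after the start, written 5′ to 3′ on the gene's strand) are shown because their capitals, ATTGG or CCAAT, mark where those letters occur. The HLA-DPB1 window is chr6:33075740-33076039 on the plus strand and the HLA-DMB window is chr6:32940979-32941278 on the minus strand.
HLA-DPB1: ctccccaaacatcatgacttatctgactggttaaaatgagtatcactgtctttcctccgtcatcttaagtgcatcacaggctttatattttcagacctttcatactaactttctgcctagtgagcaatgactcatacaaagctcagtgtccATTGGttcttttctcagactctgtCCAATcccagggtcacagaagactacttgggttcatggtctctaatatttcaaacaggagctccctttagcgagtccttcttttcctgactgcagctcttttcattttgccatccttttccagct
HLA-DMB: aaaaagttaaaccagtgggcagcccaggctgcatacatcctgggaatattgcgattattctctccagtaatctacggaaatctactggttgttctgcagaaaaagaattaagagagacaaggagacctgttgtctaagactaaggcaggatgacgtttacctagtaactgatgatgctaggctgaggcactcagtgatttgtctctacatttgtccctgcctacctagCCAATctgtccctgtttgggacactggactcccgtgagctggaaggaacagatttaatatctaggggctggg
All 4 class II members with an entry (HLA-DRB5, HLA-DRB1, HLA-DMB and HLA-DPB1) held CCAAT on 1 strand or the other. Of all 113 members with a promoter entry, 32.7% did, beside 37.3% of the other genes read in NC and 35.7% of all 27305 promoters. A match describes letters and is no measured binding site.

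The other genes of class II presentation were read from a list chosen after the members were known. Of its 16 genes, 14 could be tested, and 10 were lower and 1 higher than NC, beside 32.2% lower and 27.9% higher among all tested genes. The median log2 difference was -4.22 as fitted and -3.18 with genes at or under 3 counts set to their bound, beside -0.03 over all tested genes. CD74, the invariant chain that guides class II molecules, was among the most abundant: 700 ± 36.9 CPM in NC (SD, n = 3) and 0.111 to 0.946 CPM in the shRNA libraries. That is a log2 difference of -10.43 ± 0.23 (SE; edgeR adjusted p = 5.4e-10). HLA-DQB1 went from 67.1 ± 3.66 CPM to at most 0.296 CPM, and HLA-DPA1 from 18.6 ± 1.4 to at most 0.298 CPM. HLA-DMA, the partner of HLA-DMB, kept a small level and fell by 4.66 ± 0.26 on the log2 scale. CIITA, the master regulator of class II transcription, also fell, from 15.9 ± 1.72 CPM to means of 1.07, 1.28 and 1.13 CPM (log2 -3.77 ± 0.21). CIITA and HLA-DMA were named after their values were seen. Of the DNA-binding partners of CIITA, RFX5 and RFXANK did not pass: the log2 difference was 0.20 ± 0.12 for RFX5 and 0.02 ± 0.15 for RFXANK (adjusted p 0.16 and 0.92), while RFXAP fell by 1.05 ± 0.29. IFI30, an endosomal reductase, rose from 57.5 ± 5.01 CPM to between 101 and 323 CPM (log2 1.68 ± 0.18). The plot of class II genes by library shows these levels.

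**Figure D2:**
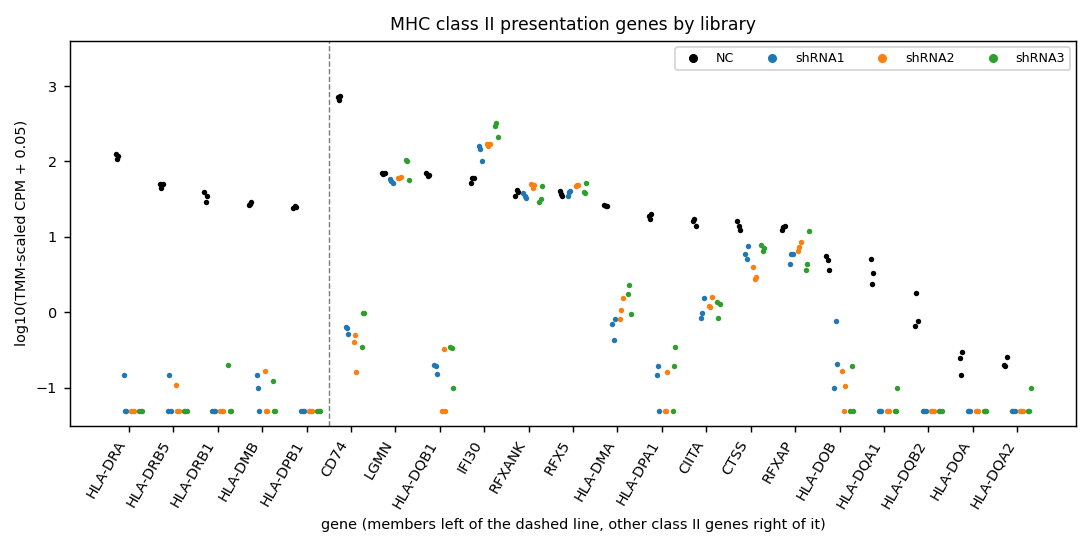
Level of each class II presentation gene (horizontal axis, members left of the dashed line) in each of the 12 libraries, as log10(TMM-scaled CPM + 0.05) on the vertical axis, with points coloured by group. The 5 members and CD74 lie apart between NC and all shRNA libraries, whereas LGMN, RFX5 and RFXANK overlap and IFI30 is higher in the shRNA libraries.

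The rest of the immune group covers receptors, signalling proteins and restriction factors. CD40, a receptor of the TNF receptor family on antigen-presenting cells, had 1517, 1567 and 1590 counts in NC (chr20:46118272-46129863) and 3 counts over all 9 shRNA libraries. NLRP2, a NOD-like receptor, had 1178, 1299 and 1114 counts in NC and 2 counts in each of shRNA1 libraries 1 and 2. SLFN11, a Schlafen protein known for sensitising cells to DNA damage, had 918, 996 and 984 and no count elsewhere. Its neighbour SLFN13 had 284, 281 and 271, with up to 3 in an shRNA library. CD302, LY75 (also called DEC-205) and PLA2R1 are lectin-type receptors that lie in a row on chromosome 2. CD302 had 469, 501 and 501 counts in NC and LY75 had 412, 235 and 359. PLA2R1, the receptor for secreted phospholipase A2, had 206, 236 and 209. TLR2, a receptor for bacterial lipoproteins, was read at 148, 148 and 176 counts. PRKCQ (protein kinase C theta) had 121, 137 and 112 counts and the ATP-gated channel P2RX7 had 113, 110 and 116. S100A7 (psoriasin), the chemokine CXCL1, the lymphoid transcription factor IKZF1 and the butyrophilin-like BTNL9 lay between 6.16 and 9.91 CPM. Of the leukocyte markers, PTPRC and CD3E were near 0 in the same libraries while CD68 was read in all, as given above, and their part in these values was not tested.

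MAGEA4 (ENSG00000147381, chrX:151912509-151925170) had the most counts of all members. Its NC libraries held 4641, 5050 and 4420 counts (235 ± 12.3 CPM), and no shRNA library held more than 2. Its antisense gene MAGEA4-AS1 overlaps it and had 180, 174 and 223 counts in NC and 0 in all others. Reads from the 2 strands may not have been separated, so the antisense level is uncertain. Among the 5 other tested genes whose symbols begin with MAGEA and a number, 4 were lower and 1 was higher, beside 32.2% lower and 27.9% higher of all tested genes. These were matched by symbol and take in MAGEA3-DT, a transcript named after MAGEA3, so they are not 5 separate MAGE-A genes. MAGEA3-DT had at least 109 counts in every NC library and at most 4 elsewhere. MAGEA3 and MAGEA6, near-identical copies of each other, had 96.6 ± 2.99 and 85.6 ± 5.25 CPM in NC and fell by 7.47 ± 0.33 and 4.86 ± 0.18 on the log2 scale (adjusted p 1.4e-08 and 4.9e-09). MAGEA1 was the opposite: it was at 0 in all NC libraries and between 34.7 and 52.2 CPM in the shRNA libraries. So within 1 family the NC cells read MAGEA4 and the shRNA cells read MAGEA1. MAGEE1, a further MAGE gene, had 163, 207 and 167 counts in NC and at most 1 elsewhere.

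ARMCX3, which encodes a protein of the mitochondrial outer membrane, had 1513, 1280 and 1432 counts in NC and 0 in all 9 shRNA libraries. ARMCX6 lies head to head with it, 4796 bases away, and had 347, 343 and 273 counts and also 0 elsewhere. BEX2 had 335, 365 and 367 counts and BEX4 had 184, 217 and 194. Both were at 0 in every shRNA library. Further along the same X region, 11 tested genes of the ARMCX, BEX and TCEAL list are no members. For the mean of the 3 hairpins, 5 of these fell and none rose (45.5% and 0%, beside 32.2% lower and 27.9% higher of all tested genes, with a median log2 of -0.42). With shRNA1 5 fell and 0 rose, with shRNA2 4 and 0, and with shRNA3 5 and 2. These comparisons share the NC libraries. TCEAL8, which lies between BEX4 and BEX2, had 493, 602 and 628 counts in NC, 6 in shRNA1 library 2 and 0 in the other 8. TCEAL3 fell from 16.6 ± 1.14 CPM by 2.56 ± 0.27 on the log2 scale. GPRASP2, at 2.49 ± 1.92 CPM in NC, passed narrowly (log2 -1.80 ± 0.71, adjusted p = 0.045). It is 1 of the 5 genes of the list that fell for the mean of the 3 hairpins. Its call was lost without NC library 1 or 2, without any 1 of the shRNA1 or shRNA2 libraries and without shRNA3 library 1 or 2 (adjusted p 0.055 to 0.22), and with no filter on low counts (0.073). Other genes of the region were still read. BEX3 had 51.5 ± 5.14 CPM in NC and means of 48.9, 77.6 and 109 CPM with the hairpins (log2 0.53 ± 0.26, adjusted p = 0.093), and ARMCX5 had 9.79 ± 1.41 CPM (log2 0.43 ± 0.30, adjusted p = 0.24). BEX3, ARMCX5, MAGEA3 and MAGEA6 were chosen after their values were seen.

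The promoters of MAGEA4 and ARMCX6 are printed, with CpG sites in capitals, as examples of members whose promoters hold few such sites. Both windows come from the same RefSeq table, chrX:151912224-151912523 on the plus strand for MAGEA4 and chrX:101617951-101618250 on the minus strand for ARMCX6.
MAGEA4: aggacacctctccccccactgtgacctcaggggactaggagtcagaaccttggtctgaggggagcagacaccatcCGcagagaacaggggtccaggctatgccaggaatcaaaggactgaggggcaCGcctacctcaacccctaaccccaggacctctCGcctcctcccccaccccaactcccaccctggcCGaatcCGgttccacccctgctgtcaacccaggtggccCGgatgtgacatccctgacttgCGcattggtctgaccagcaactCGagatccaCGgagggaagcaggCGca
ARMCX6: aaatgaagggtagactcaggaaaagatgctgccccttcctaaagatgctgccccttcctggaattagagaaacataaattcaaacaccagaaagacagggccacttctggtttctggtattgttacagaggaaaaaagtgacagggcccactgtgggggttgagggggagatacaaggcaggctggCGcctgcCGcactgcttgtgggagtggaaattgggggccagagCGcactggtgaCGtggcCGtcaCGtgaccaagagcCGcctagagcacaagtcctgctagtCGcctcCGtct
MAGEA4 has 10 CpG sites and ARMCX6 has 9, which give observed to expected ratios of 0.35 and 0.41.

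Enzymes formed the largest group. GLUL (ENSG00000135821, chr1:182381704-182392206), glutamine synthetase, had 3526, 3532 and 3454 counts in NC, or 175 ± 2.11 CPM. The shRNA libraries held 3 GLUL counts in all, so the gene was at least 893-fold lower there. TMPRSS15, enteropeptidase, a protease of the gut that activates trypsinogen, had 1263, 1352 and 1350 counts in NC and 1 count in all shRNA libraries together. MOXD1, a copper-dependent monooxygenase related to dopamine beta-hydroxylase, had 724, 669 and 736. PCBD1, which recycles tetrahydrobiopterin, had 691, 723 and 670 counts in NC and none elsewhere. Retinoid handling was represented by LRAT, which esterifies retinol (110, 132 and 120 counts). Among 14 other retinoid genes tested, 2 fell and 7 rose (14.3% and 50%, beside 32.2% lower and 27.9% higher of all tested genes). STRA6, a retinol transporter, rose from 0.0998 ± 0.0865 CPM to between 20.9 and 44.9 CPM. CYP26B1, which breaks down retinoic acid, rose from 3.23 ± 0.541 CPM by 4.29 ± 0.27 on the log2 scale, and RXRA, a partner of the retinoic acid receptors, rose by 1.38 ± 0.12. CRABP2, the binding protein for retinoic acid, fell by 1.63 ± 0.28. This list was also chosen after the members were known.

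Lipid enzymes among the members were PLA2G7, which hydrolyses platelet-activating factor (117, 117 and 112 counts), CYP2J2, an arachidonic acid epoxygenase (122, 121 and 108), and PLAAT1, a phospholipase and acyltransferase. ENPP5, of the ectonucleotide pyrophosphatase family, had 348, 330 and 373 counts. CES4A, a carboxylesterase, had 211, 240 and 192. Proteolysis and ubiquitin turnover were represented by CPE (carboxypeptidase E), PRSS21 (testisin), HTRA3, RHBDL2 (192, 190 and 160 counts), the ubiquitin ligases RNF128 (107, 143 and 115) and TRIM55, and the deubiquitinase OTUD7A. CAPN6, a calpain without protease activity, had 260, 241 and 220 counts. Glycosylation enzymes were GALNT14, which starts O-glycans (203, 222 and 207 counts), and B3GALNT1. The other enzymes were QPCT (glutaminyl cyclase), ASRGL1, SDR42E1, C9orf64, ECHDC3, NUDT11, TSTD1 and ACP7, which lay between 6.44 and 32.3 CPM.

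Signalling members spanned ligands, receptors and effectors. Among ligands, NMB (neuromedin B) had 603, 613 and 541 counts in NC and at most 3 elsewhere, and its short transcript gave it 28.7 CPM per kilobase, the fifth highest. WNT5A had 147, 155 and 185 counts, and PTN (pleiotrophin) had 206, 239 and 297. NTNG1 (netrin G1) was at the lower limit with 5.24 CPM. ENPP2 (autotaxin), which makes lysophosphatidic acid, had 189, 155 and 185. Among receptors, S1PR3 binds sphingosine 1-phosphate and had 1010, 775 and 767 counts in NC and at most 2 elsewhere. EPHB6, an ephrin receptor without kinase activity, had 561, 544 and 467. Other receptors were EPHA10, ACVR1C, UNC5A, GPRC5B and TNFRSF19, and GPC4 (glypican 4) is a co-receptor with 765, 691 and 651 counts in NC and none elsewhere.

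SMO, the signal transducer of the Hedgehog pathway, had 603, 507 and 463 counts in NC and at most 2 in an shRNA library. Of 12 tested Hedgehog genes besides SMO, 4 fell and 3 rose (33.3% and 25%), near the 32.2% and 27.9% of all tested genes, with a median log2 difference of 0.06. BOC, a co-receptor, fell by 3.30 ± 0.25 on the log2 scale, PTCH1, the receptor that holds SMO inactive, by 1.10 ± 0.26, and the inhibitor SUFU by 0.69 ± 0.16. GPR161, another inhibitor, rose by 1.07 ± 0.37 (adjusted p = 0.026), and its call was lost without any 1 of the NC libraries (adjusted p 0.066 to 0.093). The Hedgehog list was written after the members were known.

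Effectors within the cell began with ADCY1, an adenylate cyclase, which had 1430, 1282 and 1197 counts in NC and 2 in all shRNA libraries together. CYFIP2, of the WAVE complex that drives actin branching, had 725, 1034 and 769. CCND2 (cyclin D2) had 933, 631 and 629 counts in NC and none elsewhere. Its relatives moved in different directions, since CCND1 fell by 0.67 ± 0.19 and CCND3 rose by 1.05 ± 0.14 on the log2 scale (adjusted p 0.011 and 5.0e-05; both named after their values were seen). HEYL, a Notch target, had 169, 177 and 121 counts, and DTX3, a Deltex ubiquitin ligase of the Notch pathway, had 277, 227 and 213. ARHGEF25, a guanine nucleotide exchange factor, had 368, 383 and 321, and PAK3, a kinase downstream of Rac, had 177, 246 and 226. CALML3, a calmodulin-like protein of keratinocytes, had 181, 277 and 248 counts. RCAN2, a calcineurin inhibitor, had 107, 114 and 117. RASAL1, RND2, CYRIA and DPYSL3 completed the group.

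At the cell surface, PDPN (podoplanin) had 629, 714 and 719 counts in NC and none elsewhere. CMTM3 had 653, 594 and 535, with 3 counts in shRNA2 library 1 as its highest shRNA value. The integrin ITGA4, the cadherin CDH11 and the adhesion proteins NCAM1 and CNTN1 lay between 9.53 and 13.9 CPM. BVES, ILDR1 and ILDR2 are proteins of cell contacts, and FREM2, PARM1, SUSD3, TMEM25, TSPAN7 and LYPD6B completed the group. Of 18 tested tight junction genes outside the set, 9 fell and 2 rose (50% and 11.1%, beside 32.2% lower and 27.9% higher of all tested genes). The median log2 difference was -1.17 with shRNA1, -0.72 with shRNA2 and 0.14 with shRNA3, comparisons that share the NC libraries. CRB3, a polarity protein, fell from 43.5 ± 3.72 CPM to at most 0.338 CPM, CGN (cingulin) by 2.64 ± 0.25 and CLDN23 by 2.18 ± 0.41 on the log2 scale. OCLN (occludin) rose by 0.98 ± 0.18. PARD3 rose by 0.36 ± 0.13 (adjusted p = 0.035), a call lost with DESeq2 size factors (adjusted p = 0.050) and, among others, without NC library 2 (0.17). With DESeq2 size factors, or with no filter on low counts, 1 gene of the list rose.

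TMEM30B, a subunit that phospholipid flippases need to leave the endoplasmic reticulum, had 1664, 1586 and 1650 counts in NC and 0 in all 9 shRNA libraries. Of 12 other flippase genes tested, 5 fell and 3 rose (41.7% and 25%, beside 32.2% lower and 27.9% higher of all tested genes). ATP8B2 fell from 42.9 ± 5.69 CPM by 5.62 ± 0.51 on the log2 scale, ATP8B1 fell by 4.83 ± 0.20 and ATP8A1 fell by 4.12 ± 0.29. ATP8B3 rose by 2.33 ± 0.18 and ATP11A by 1.53 ± 0.11. The other transport and cytoskeleton members were led by PLEKHB1 (970, 1006 and 916 counts in NC, at most 2 elsewhere). HOOK1, which links cargo to dynein, had 814, 861 and 881 counts and none elsewhere. KCNG1, a modulatory potassium channel subunit, had 849, 840 and 625 counts. EHD3, of endosomal recycling, had 482, 456 and 383, and both genes reached 3 counts in a single shRNA library. TRPV6, a calcium channel of epithelia, had 174, 157 and 123. ADD2 (beta-adducin), SLC66A1L, SLC35F3, ATP1B2 (a subunit of the sodium pump) and COPZ2 (a coat protein) lay between 5.93 and 24.2 CPM.

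Regulators of transcription and RNA were read at low levels, with a median of 7.71 CPM, and 9 of the 16 were at 0 in all shRNA libraries. RBM24, an RNA-binding protein that controls splicing in muscle, was the highest at 461, 440 and 415 counts. DMRT1 and DMRT2 share the DM DNA-binding domain and sit in tandem on chromosome 9. DMRT1, of testis development, had 133, 108 and 134 counts and DMRT2 had 174, 182 and 153. EYA2, a transcriptional co-activator with phosphatase activity, had 190, 227 and 198. PWWP3B had 177, 126 and 128 counts in NC and none elsewhere. The developmental factors PAX6, FOXE1, SALL2, RORB and VGLL2 were also members, with PAX6 at 111, 114 and 113 counts. DDX43 (a cancer-testis helicase), NSUN7, NAP1L5, ZNF215, ZNF32 and ZFP92 completed the group.

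Among other protein-coding members, C1orf115 had 776, 799 and 784 counts in NC and none elsewhere, at 39.4 ± 0.3 CPM. MORN3 had 120, 115 and 121 counts. The micropeptide gene MRLN, BSPRY, LRATD1, AC093899.2, CCNJL, CCDC74A, TMEM255A, FAM184A, TMEM98, ATRNL1, PTPN20 and NYNRIN lay between 6.29 and 32.5 CPM. CCDC74A and PTPN20 have near-identical copies, so their reads are uncertain. Non-coding members were led by LINC02984, with 239, 257 and 335 counts in NC. They included LINC02967, LINC00960, LINC02609, LINC03052, SNHG18, GIRGL, FEZF1-AS1, AL109918.1, AC010503.4 and AC093627.1. FAM66B and FAM66D are copies of each other, and TUBBP5 and RARRES2P4 are pseudogenes, so reads may be shared with related genes. ENSG00000287887 and novel694 have no entry in GENCODE release 29.

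The share of members differed between chromosomes, which is given as a description. The X chromosome held 16 of the 153 annotated members (10.5%), whereas it holds 2.93% of the other genes read in NC. Put the other way, 4.62% of the X genes read in NC were members, beside 1.34% over all chromosomes. Chromosomes 6 (15 members, 2.55%) and 4 (9 members, 2.49%) followed. Chromosomes 18 and 22 held none, out of 152 and 302 genes read in NC. Besides the MAGE, ARMCX and BEX genes, the X members were GPC4, NUDT11, CAPN6, TSPAN7, TMEM255A, PAK3, ZFP92, PWWP3B and RNF128. Among the 30 genes read only in the shRNA libraries, 3 lay on the X (10.3% of 29 annotated).

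**Figure D3:**
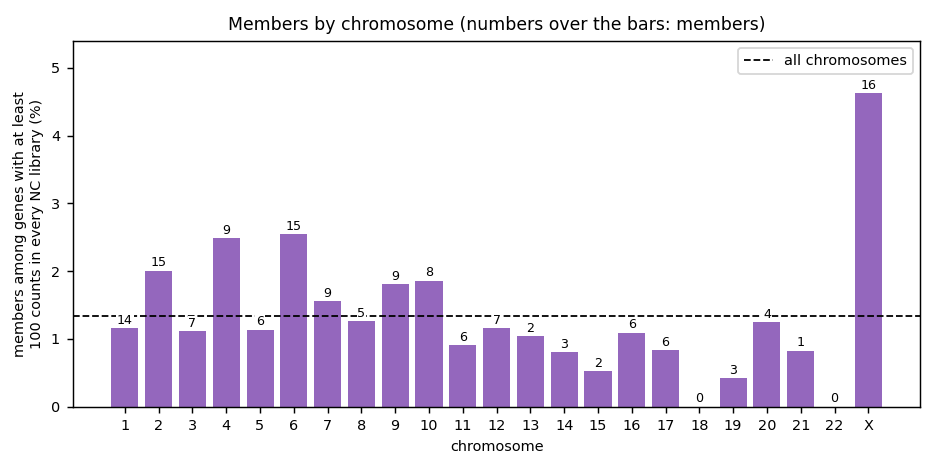
Share of members among genes with at least 100 counts in every NC library (vertical axis, percent) for each chromosome (horizontal axis), with the number of members over each bar and a dashed line at the share over all chromosomes (1.34%). The X chromosome has the tallest bar, 4.62% with 16 members, and chromosomes 18 and 22 have none.

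Some members lay close together, which is given as a description. With a limit of 1 Mb between neighbouring ends, 45 of the 153 annotated members formed 20 clusters, 17 of them pairs. The like share among other genes read in NC was not computed, so whether members cluster more than other genes was not tested. The 5 class II genes formed the largest, from chr6:32439842 to 33087201. CD302, LY75 and PLA2R1 (chr2:159768630-160062610) formed a triplet, as did ENPP5, RCAN2 and PLA2G7 (chr6:46159187-46735693). The closest pairs were MAGEA4 with its antisense gene, which overlap, EPHB6 and TRPV6, whose convergent ends are 109 bases apart, and DTX3 and ARHGEF25, 376 bases apart in tandem. HOOK1 and CYP2J2 converge with 16930 bases between them, PAK3 and CAPN6 with 17742. GALNT14 with EHD3, SLFN11 with SLFN13, DMRT1 with DMRT2, and BEX4 with BEX2 lay within 100 kb of each other. The wider pairs were RHBDL2 and HEYL, TLR2 and LRAT, CALML3 and PRKCQ, P2RX7 and MORN3, CMTM3 and CES4A, CD40 and EYA2, and PWWP3B and RNF128. Of the 9 families with at least 2 members, 18 genes in all, most lay together: ARMCX, BEX, DMRT, HLA-DRB, MAGEA and SLFN. ENPP2 and ENPP5, ILDR1 and ILDR2, and PLA2G7 and PLA2R1 did not, and the last pair shares a letter stem and no protein family.

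Genes between clustered members did not all share the pattern. Of 13 tested genes among the class II members, 11 were lower than NC and 1, BRD2, a chromatin reader, was higher (181 ± 14.2 CPM in NC, 278 to 735 CPM elsewhere). Over all tested genes, 32.2% were lower and 27.9% higher. TAP1, the peptide transporter of class I presentation, kept 65.4 to 156 CPM after 267 ± 21.4 CPM in NC, and the immunoproteasome subunit PSMB9 kept 8.30 to 30.6 CPM after 133 ± 1.55. SLFN12, between SLFN11 and SLFN13, had 7.28 ± 1.03 CPM in NC and at most 0.464 CPM elsewhere. Between PWWP3B and RNF128, RADX fell by 3.45 ± 0.27 on the log2 scale, and between ENPP5 and PLA2G7, SLC25A27 fell by 3.00 ± 0.29. In the wider pairs the genes between were often still read: between RHBDL2 and HEYL, PABPC4 had a log2 difference of -0.06 ± 0.15, and NDUFS5 rose by 0.60 ± 0.18. Between P2RX7 and MORN3, P2RX4 fell by 1.59 ± 0.19 and RNF34 rose by 0.89 ± 0.25.

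Over all members, 345 tested non-member genes lay within 100 kb. Of these, 149 (43.2%) were lower than NC and 66 (19.1%) were higher, beside 32.2% and 27.9% of all tested genes. Their median log2 difference was -0.34, beside -0.03. Each hairpin gave a like count: 140 were lower with shRNA1, 143 with shRNA2 and 136 with shRNA3, beside 30.6%, 28.4% and 27.6% of all tested genes. These 3 comparisons share the NC libraries. Without the neighbours of the HLA members, which was chosen after seeing the data, 139 of 332 (41.9%) were lower. Without shRNA3 libraries 1 and 2, 183 of 369 (49.6%) were lower and 103 (27.9%) were higher, beside 39.0% and 34.0% of 19093 genes tested then. Genes that overlap a member were counted apart: 21 of 30 (70.0%) were lower and 2 were higher, with a median of -3.85 as fitted and -2.86 with genes at or under 3 counts set to their bound. For these genes, reads cannot be assigned to strands, because the sources used here do not say whether the counting used strand; 83 members overlap another gene and 67 of them overlap one on the opposite strand. Among neighbours that overlap no member, 128 of 315 (40.6%) were lower and 64 (20.3%) higher. Farther away the shares were nearer the background: from 100 to 500 kb 33.4% were lower and 26.1% higher, and from 500 kb to 1 Mb 32.7% and 28.2%. Beyond 1 Mb, 30.8% of 14626 genes were lower.

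**Figure D4:**
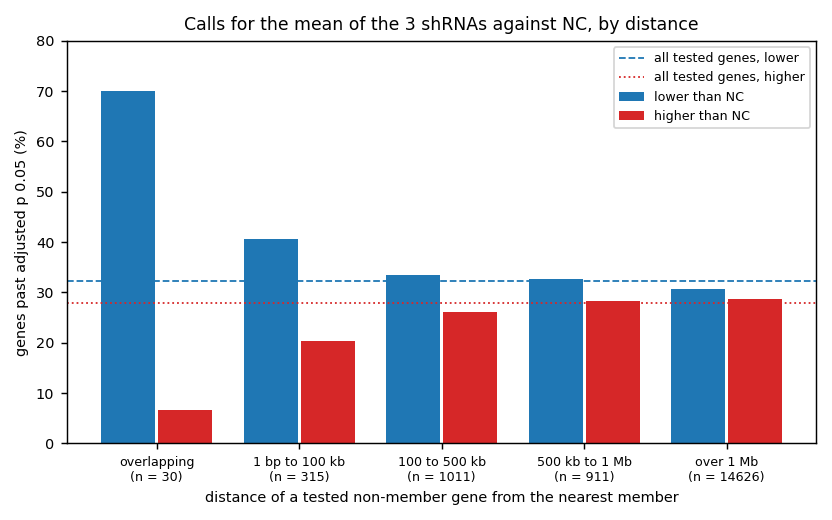
Percentage of tested non-member genes called lower (blue) or higher (red) than NC for the mean of the 3 hairpins (vertical axis, percent) by distance from the nearest member (horizontal axis, number tested under each bin), with dashed and dotted lines at the values over all tested genes. The share called lower is 70.0% for overlapping genes and 40.6% from 1 base to 100 kb, and beyond 100 kb it is 30.8% to 33.4%.

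Named neighbours show both directions. The readthrough gene LY75-CD302, which shares exons with LY75 and CD302, had 13.6 ± 0.875 CPM in NC and 5 counts in a single shRNA1 library. SLC16A9, a carnitine transporter 690 bases from MRLN, had 5.62 ± 0.923 CPM in NC and no count elsewhere, and missed the limit of 100 counts with 93 in its lowest NC library. ANKRD33BP1, which overlaps LINC03052, was also at 0 in all shRNA libraries. EFNB3, an ephrin 47434 bases from ATP1B2, had 12.6 ± 0.885 CPM in NC and at most 0.29 CPM elsewhere. On the other side, S100A4, a calcium-binding protein 82912 bases from S100A7, rose from 3.18 ± 0.45 CPM to between 20.4 and 60.1 CPM (log2 3.53 ± 0.19, adjusted p = 5.9e-08). ZG16B, 3865 bases from PRSS21, rose from 0.215 ± 0.156 CPM to between 8.15 and 15.4 CPM. HERC3, a ubiquitin ligase whose gene contains NAP1L5, rose by 2.97 ± 0.38, DNAH2 by 3.22 ± 0.30 and AP001267.5 by 2.87 ± 0.50 on the log2 scale. CDH16 rose from 0.0169 ± 0.0292 CPM to between 0.619 and 6.08 CPM.

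Further genes overlap a named member. PRKCH, which overlaps TMEM30B on the other strand, had 13.5 ± 1.24 CPM in NC, fell by 2.38 ± 0.19 on the log2 scale and was still read in every library. CALML3-AS1 fell by 5.28 ± 0.39. MARCHF7, which overlaps CD302, fell by 0.45 ± 0.11 from 74.3 ± 4.62 CPM. ADAM19, opposite CYFIP2, fell by 1.18 ± 0.41 (adjusted p = 0.028), and its call was lost without any 1 of the NC libraries (adjusted p 0.059 to 0.091), among other alternatives. NLRP7, opposite NLRP2, had 1.35 ± 0.2 CPM in NC and never more than 3 counts elsewhere. TDRD6, AL732437.1 and AC009084.2 were under 2 CPM in NC and never above 2 counts elsewhere. AC008012.1, on the strand of CCND2, had 6.04 ± 0.486 CPM in NC and up to 4.45 CPM elsewhere (log2 -2.96 ± 1.23, adjusted p = 0.055), and RRAGC-DT had a log2 difference of -1.16 ± 0.63 (adjusted p = 0.14). Without shRNA3 libraries 1 and 2, RRAGC-DT passed (log2 -2.08, adjusted p = 0.013). AC008012.1 passed without shRNA1 library 2 (log2 -5.45, adjusted p = 0.0082), without shRNA2 library 1 (-5.54, 0.0072) and without shRNA3 library 1 (-3.38, 0.048).

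Relatives by name included lower and higher genes. Of 419 tested non-member genes that share a letter stem with a member, 175 (41.8%) were lower and 99 (23.6%) higher, beside 32.2% lower and 27.9% higher of all tested genes. Their median log2 difference was -0.27, beside -0.03. Without the relatives that are also neighbours within 100 kb, 163 of 397 (41.1%) were lower. TMPRSS13, a serine protease, and ZFP37 had 6.69 ± 1.48 and 4.59 ± 0.751 CPM in NC and no count elsewhere. TNFRSF10D, a decoy receptor for TRAIL, was at 39.1 ± 4.74 CPM in NC and never above 4 counts elsewhere. Relatives of GALNT14 included GALNT18 (30.5 ± 0.613 CPM in NC, at most 4 counts elsewhere) and GALNT12 (13.6 ± 1.53 CPM, at most 4 counts). The GALNT relatives did not all share this: of 13 tested, 5 were lower and 4 were higher. Rising relatives besides MAGEA1 and CDH16 were WNT10B, a Wnt ligand (0.184 ± 0.0315 CPM in NC, 6.41 to 22.6 CPM elsewhere), the calcium channel TRPV4 (0.133 ± 0.0765 CPM, then 3.78 to 9.63 CPM), ZFP42 and PLAAT2. TRPV6 and WNT5A, members of those families, went the other way from TRPV4 and WNT10B, but the rule fixes the direction of members. Of 11 tested WNT relatives 5 were lower and 3 higher, and of 4 tested TRPV relatives 0 were lower and 3 higher.

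Lists of genes of silencing were read beside the members. Of 29 tested genes that are often methylated in tumours, 14 were lower and 7 higher (48.3% and 24.1%, beside 32.2% lower and 27.9% higher of all tested genes), with a median log2 difference of -0.74. DKK3, a Wnt antagonist, had 93.4 ± 4.17 CPM in NC and 0.0563 to 0.994 CPM elsewhere (log2 -8.52 ± 0.23, adjusted p = 7.0e-10). PYCARD, the inflammasome adaptor, fell from 27.8 ± 3.46 CPM to at most 1.04 CPM, and RUNX3 from 8.60 ± 0.893 CPM to at most 0.29 CPM. Other genes of the list were read only or mostly in the shRNA cells: MGMT, a DNA repair enzyme, was at 0 in all NC libraries and at 3.87 CPM or more in every other library. VIM (vimentin) rose from 3.25 ± 0.198 CPM to between 355 and 817 CPM (log2 7.45 ± 0.31), and TIMP3 rose by 2.17 ± 0.15. Among 14 tested DNA methylation and demethylation enzymes, 2 were lower and 5 higher (14.3% and 35.7%, beside the same 32.2% and 27.9%). DNMT1, the maintenance methyltransferase, rose from 116 ± 4.71 CPM by 1.44 ± 0.13, its partner UHRF1 by 2.24 ± 0.20 and the de novo enzyme DNMT3B by 1.85 ± 0.13 on the log2 scale. DNMT3A fell by 0.64 ± 0.19 (adjusted p = 0.012), a call lost without NC library 1 (adjusted p = 0.076). Of 24 polycomb genes, 3 were lower and 13 higher (12.5% and 54.2%, beside 32.2% and 27.9% of all tested genes). CBX2 rose by 1.73 ± 0.16, PHF19 by 1.65 ± 0.30 and the methyltransferase EZH2 by 1.36 ± 0.15, while CBX7 fell by 1.83 ± 0.20 and RING1 by 0.40 ± 0.10. The part of these enzymes in the members' pattern was not tested.

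Metallothioneins, relatives of the left-out MT1E, gave 3 lower and 1 higher of 4 tested. Of all tested genes, 32.2% were lower and 27.9% higher. The hairpins differed in their counts: with shRNA3 alone 1 was lower and 2 were higher (median log2 0.10), whereas the median was -2.23 with shRNA1 and -1.63 with shRNA2. These comparisons share the NC libraries, and the difference between hairpins was not tested. With no filter on low counts 5 were lower and 0 higher. MT2A fell from 3649 ± 934 CPM by 2.21 ± 0.15 and MT1X by 2.08 ± 0.38 on the log2 scale. MT1B, at 0 in NC and up to 14.4 CPM elsewhere, passed narrowly (adjusted p = 0.036) and did not pass without any 1 of the NC or shRNA1 libraries (adjusted p 0.054 to 0.081). Over the 7 lists together, 41 of 112 tested genes were lower (36.6%) and 31 higher (27.7%), shares near the background, with a median of -0.03.

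Members' promoters had a lower median CpG ratio than those of other genes read in NC. An entry was found for 113 of the 155. The ratio of observed to expected CpG had a median of 0.71 in the members and 0.85 in 8971 other genes read in NC. A promoter was counted as CpG-dense with a ratio of at least 0.6 and a GC content of at least 50%. By that measure 70 members (61.9%) were dense, beside 84.0% of the other genes read in NC and 46.9% of all promoters of the table. The genes read only in the shRNA libraries, with 19 entries, gave 68.4%. The motif TATAAA, read on the gene's strand only, occurred in 2.65% of the members' promoters, 3.33% of the others and 7.71% of all. Within the members, 6 of 16 promoters of the immune group and 1 of 5 of the MAGE, ARMCX and BEX group were dense, beside 11 of 14 among the regulators of transcription and RNA. The promoters of GLUL (chr1:182391741-182392040, minus strand) and SLFN11 (chr17:35373572-35373871, minus strand) are shown as CpG-dense members, with CpG sites in capitals as for MAGEA4 and ARMCX6 above.
GLUL: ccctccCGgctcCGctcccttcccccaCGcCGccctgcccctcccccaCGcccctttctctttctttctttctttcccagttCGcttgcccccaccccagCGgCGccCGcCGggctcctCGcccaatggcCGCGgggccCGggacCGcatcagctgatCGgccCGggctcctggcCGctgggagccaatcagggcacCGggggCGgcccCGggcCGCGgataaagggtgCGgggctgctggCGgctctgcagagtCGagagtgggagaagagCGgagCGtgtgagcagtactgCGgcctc
SLFN11: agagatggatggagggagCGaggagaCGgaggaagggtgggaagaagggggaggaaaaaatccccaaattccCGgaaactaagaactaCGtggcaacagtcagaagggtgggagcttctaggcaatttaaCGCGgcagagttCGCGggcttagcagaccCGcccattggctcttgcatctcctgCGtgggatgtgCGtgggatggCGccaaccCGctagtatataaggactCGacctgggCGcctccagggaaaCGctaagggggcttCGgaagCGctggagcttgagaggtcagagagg
GLUL has 29 CpG sites (ratio 0.74, GC 72.7%) and SLFN11 has 18 (ratio 0.77, GC 58.0%). The HLA-DPB1 and HLA-DMB windows printed above have 2 and 4. So the set joins CpG-dense and CpG-poor promoters.

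**Figure D5:**
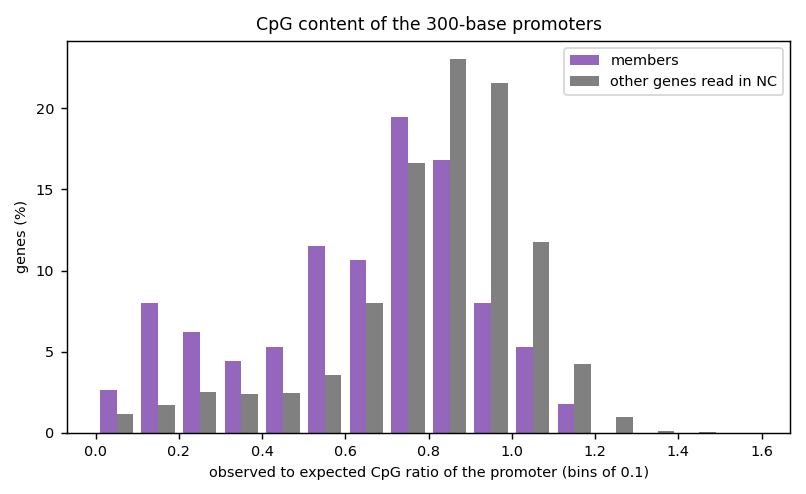
Distribution of the observed to expected CpG ratio in the 300-base promoters (horizontal axis, bins of 0.1; vertical axis, percent of genes) for 113 members (purple) and 8971 other genes read in NC (grey). The members have more genes at low ratios, with a median of 0.71 against 0.85.

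At the limits of the rule, 11 members had a lowest NC value of 100 to 109 counts, COPZ2 and NTNG1 being closest with 101. Just outside, 17 genes had 90 to 99, such as CRACR2A, SERPINA3 and TMPRSS13 with 99. On the other limit, 26 members reached 3 counts in an shRNA library and 31 genes missed the set with 4, GALNT18 among them. Beyond CLDN1, MT1E and WFDC2, the non-members most like the set, by the lowest summed count over the 9 shRNA libraries among genes with at least 100 in every NC library, were LY75-CD302 (5 counts), LINC02475, SLC43A3 and TCEAL8 (6 each), TUB (7), and RAB25 and SYT13 (8 each).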

How the data were processed

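RNA from 12 SCC-15 libraries, 3 with each hairpin, was sequenced. The values the authors deposited are estimated counts of reads per gene, without scaling, and 13.8% of them are not whole numbers. HISAT2, HTSeq 0.11.2 and GRCh38 are named in the submitters' processing notes, and the use of strand is not given in the sources used here. Groups and columns were matched by sample title. Counts were rounded, scaled by TMM (factors 0.771 to 1.11) and filtered with filterByExpr (minimum count 10, minimum total 15), which left 17532 genes. Library totals ranged from 17286934 to 19567192 counts.

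The members and lists were chosen with earlier results of these data known. The class II, Hedgehog and retinoid lists were added after the members had been seen. Members were found by the 2 count limits and described without a test. Some genes are not reported here. For other genes a two-sided quasi-likelihood test was run in edgeR 4.0.16 under R 4.3.3, with a robust fit and 1 model of the 4 groups, with Benjamini-Hochberg adjustment over all tested genes and a threshold of 0.05. The contrast was the mean of the 3 hairpins against NC. The standard error is that of the log2 difference. A bound on a fold difference used 3 counts per library as the floor. For a count of 0 such bounds cover counting error alone, because PCR copies were not told apart by molecular identifiers. Where shRNA counts were read, the bounds hold for the observed counts only.

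Positions and gene types came from GENCODE release 29 on GRCh38. Promoters came from RefSeq (GRCh38.p14), matched by symbol. Neighbours lie within 100 kb of a member. Relatives share a letter stem with a member, leaving out stems held by more than 60 genes. Values per library are given for the 20 members with the highest NC level, for members within 1 Mb of another or sharing a stem, and for some others as examples. Named neighbours and relatives are the 6 with the largest change in each direction among those with an adjusted p under 0.05, the same sign for all hairpins and a mean of at least 1 CPM, and genes overlapping a named member. Up to 3 genes per direction were named per list by the same criteria. The 10 non-members most like the set are those with the lowest summed count in the shRNA libraries.

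Alternatives were other count limits, libraries thinned to the smallest total, DESeq2 size factors, the DESeq2 Wald test (DESeq2 1.42.0), no filter, a replicate block, a neighbour distance of 500 kb, a minimum log2 change of 1 and each library left out in turn. Leaving out shRNA3 libraries 1 and 2 together, and the neighbours of the HLA members, were added after seeing the data.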

Additional observations from a re-analysis of the deposited data

How the results depend on the processing

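The number of members depends on the count limits: 257 genes with at least 50 counts in every NC library, 80 with at least 200, 52 with 0 counts in every shRNA library and 275 with at most 10, and 158 to 168 with 1 library left out. The wider distance of 500 kb gave 487 lower and 330 higher neighbours, of more genes tested. Higher neighbours numbered 103 without shRNA3 libraries 1 and 2, and 37 when the log2 change also had to reach 1, which also left 18 higher listed genes and 2952 higher genes in all. Leaving out 1 library at a time gave 137 to 186 lower and 51 to 94 higher neighbours, 160 to 207 lower and 86 to 137 higher relatives, 35 to 53 lower and 27 to 43 higher listed genes, and 5019 to 7400 lower and 3993 to 6129 higher genes in all. No sign reversed in any alternative run. Replicate numbers did not pair the libraries: same-numbered libraries deviated from their group means with a mean correlation of -0.00267 over 18 pairs, and 3 of 12 libraries correlated best with their own number. A fit with a replicate block gave 147 lower and 63 higher neighbours, 174 and 92 relatives, 41 and 32 listed genes, and 5537 and 4644 genes in all, and GPRASP2 did not pass (adjusted p = 0.095), whereas AC008012.1 did (0.034). At this depth, a level of up to 3 counts per library was not distinguished from 0.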
